A study of Homo sapiens with 4 samples.

Results

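The genes described here make and load the MHC class I molecule: the heavy chain genes HLA-B, HLA-C, HLA-E and HLA-F, the light chain gene B2M, the peptide transporter genes TAP1 and TAP2, the loading chaperone gene TAPBP and the transcriptional activator gene NLRC5. They were listed by name, and every probe set (a group of short probes summarised to 1 value) annotated to 1 of them alone was taken. All 9 were measured, by 25 probe sets, among 19775 genes in all. RNA came from KM-H2, an established line of Hodgkin lymphoma cells. A pair of arrays was made from cells in which PTPN1, the gene of a phosphatase that takes phosphate off JAK kinases, was knocked down with siRNA, while cells of the other pair received a non-silencing control. The series calls the arrays of a group technical replicates, so SDs, SEs and p-values describe the spread between arrays of 1 cell line and not between cultures. The sources used here give no siRNA sequence, dose or time.

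Class I molecules carry peptides to the cell surface, where cytotoxic T cells read them and natural killer cells sense their loss. Peptides cut in the cytosol are pumped into the endoplasmic reticulum by the dimer of TAP1 and TAP2, and tapasin, the product of TAPBP, holds the empty heavy chain and B2M beside the transporter until a peptide fits. Transcription of several of these genes is driven by NLRC5 through a shared promoter module and by interferon and NF-kB signals. Loss of class I is a known route by which Hodgkin lymphoma cells escape T cells.

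Promoters of these genes are shown for the motifs of this module and of the signals named above. Whether these motifs bear on the differences was not tested. RefSeq promoters on GRCh38.p14 (250 bases before to 50 after a gene start) were found for 7 of the 9 genes, in 8 promoters because TAP1 has a pair of annotated starts. Capitals mark matches to 6 motifs searched on both strands: the core of interferon-response elements (GAAA, NN and GAAA in a row), GAANTGAAA, a related element with another spacing that was picked from these sequences, TGACG, bound by CREB factors and part of the X2 box of the class I module, CCAAT, the NF-Y motif of its Y box, an NF-kB type (GGGG, NN and TTCC in a row) and TTCNNNGAA, a STAT type. Of the heavy chain genes and B2M, the stretch from -165 to -36 bases before the start is given, at chr6:31357215-31357344 (minus strand) for HLA-B, chr6:31272128-31272257 (minus strand) for HLA-C, chr6:29723269-29723398 (plus strand) for HLA-F and chr15:44711352-44711481 (plus strand) for B2M.
HLA-B: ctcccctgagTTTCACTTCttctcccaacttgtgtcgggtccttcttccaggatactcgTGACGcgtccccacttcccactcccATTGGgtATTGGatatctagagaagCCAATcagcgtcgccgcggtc
HLA-C: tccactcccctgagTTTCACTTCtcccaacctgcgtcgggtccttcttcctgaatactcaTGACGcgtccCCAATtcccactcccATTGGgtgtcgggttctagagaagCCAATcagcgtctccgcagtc
HLA-F: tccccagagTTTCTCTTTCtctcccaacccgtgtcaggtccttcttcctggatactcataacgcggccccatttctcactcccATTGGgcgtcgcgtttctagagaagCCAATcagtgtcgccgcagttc
B2M: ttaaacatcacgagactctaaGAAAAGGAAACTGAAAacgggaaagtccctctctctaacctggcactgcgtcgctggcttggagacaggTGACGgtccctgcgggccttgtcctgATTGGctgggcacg

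The transporter and tapasin genes are shown around their interferon-response type matches, at chr6:32853783-32853878 for TAP1, chr6:32838748-32838837 for TAP2 and chr6:33314079-33314138 for TAPBP, all on the minus strand.
TAP1: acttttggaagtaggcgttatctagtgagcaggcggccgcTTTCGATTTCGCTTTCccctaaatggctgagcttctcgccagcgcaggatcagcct
TAP2: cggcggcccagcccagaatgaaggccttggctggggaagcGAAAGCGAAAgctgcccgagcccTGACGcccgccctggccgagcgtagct
TAPBP: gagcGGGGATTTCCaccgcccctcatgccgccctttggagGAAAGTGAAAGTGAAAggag

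The interferon-response core was present in the promoters of HLA-F, B2M, TAP1, TAP2 and TAPBP, 5 of the 7 genes, against 3.57% of all 35116 promoters. In B2M, TAP1 and TAPBP it occurred as a pair of matches that overlap each other. GAANTGAAA lay at -155 in HLA-B and -151 in HLA-C; 1.79% of all promoters hold it, and nothing is read from that share because these sequences were used to pick the motif. A TGACG match lay at -106 in HLA-B, -105 in HLA-C, -75 in B2M and -35 in TAP2, and 24.6% of all promoters hold one. CCAAT was found in 5 of the 7 genes, against 34.6% of all promoters. The NF-kB pattern as spelled was found in TAPBP alone (1.74%) and TTCNNNGAA in TAP1 alone, at its other start (7.66%). NF-kB sites with other letters were not searched for, so none can be called absent from the other genes. The HLA-B promoter was 88.5% identical to that of HLA-C and 79.2% to that of HLA-F, whereas B2M was 48.0% identical to HLA-B. Such matches describe letters and not sites in use.

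**Figure D1:**
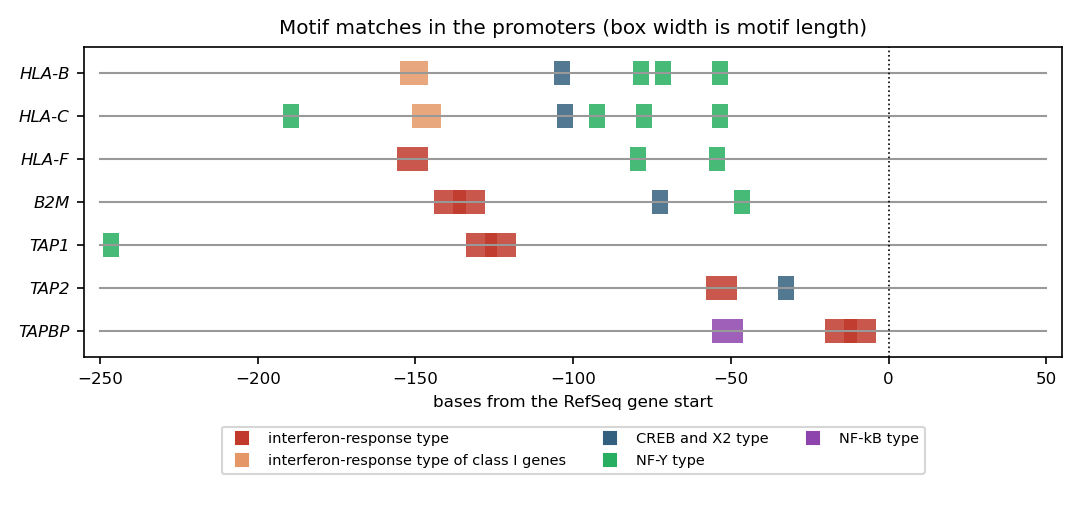
Positions of motif matches in the promoters of 7 genes, in bases from the RefSeq gene start (dotted line); grey lines are the 300 bases searched and coloured boxes the matches. The interferon-response types lie between -156 and -119 in HLA-B, HLA-C, HLA-F, B2M and TAP1, and nearer the start in TAP2 and TAPBP.

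The values are log2 RMA values, normalised by the authors so that all arrays have nearly the same distribution, with medians from 5.10 to 5.12. The number of arrays limits the precision, and in bulk RNA a change in the share of cells that express a gene cannot be told apart from one in RNA per cell. PTPN1 at its brightest probe set read 7.18 ± 0.26 in the knockdown arrays, against 8.28 ± 0.17 in the non-silencing arrays (SD, n = 2 each), a log2 difference of -1.10 (SE 0.18, limma adjusted p = 0.769). The 3 other PTPN1 probe sets were dimmer than the median of all values and differed by 0.01, -0.07 and -0.03, and with the mean of all 4 the difference was -0.30. All 10 listed Hodgkin cell markers lay at or above 5.11, the median of all values, among them TNFRSF8, which encodes CD30, with 9.32 and 8.33 in knockdown and 8.82 and 8.16 in non-silencing arrays. The mean of this list was 9.37 and 9.05 in knockdown, against 9.01 and 8.93 in non-silencing arrays, and 8 of the 10 had differences above 0. Of 6 measured B cell markers 5 also lay at or above the median of all values, the exception being MS4A1, with 4.40 and 4.41 in knockdown and 5.20 and 4.46 in non-silencing arrays. So did 5 of 8 stromal and epithelial, 3 of 6 T cell and 2 of 6 myeloid markers, and this level alone does not mark a cell type. The mean of the B cell list was 6.013 and 5.999 in knockdown, against 6.186 and 6.110 in non-silencing arrays, and 5 of the 6 had differences below 0. Control probe sets for 18S ribosomal RNA gave means of 12.4 and 12.2 in knockdown and 11.9 and 11.7 in non-silencing arrays, and the 3' minus 5' difference of beta-actin, a gauge of RNA integrity, was 1.33 and 0.969 against 1.31 and 0.972. Thus the ribosomal RNA moved with the group and the beta-actin gauge with the array number, and the part of these and of the marker lists in the results below was not tested.

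All 9 genes read higher on average in PTPN1 knockdown than in non-silencing cells, by amounts between 0.04 and 0.58 on the log2 scale, and none passed the test. The median difference was 0.22, against -0.01 over all genes and -0.0024 over the 1978 genes at or above the level percentile of 90. The transporter genes TAP1 and TAP2 stood highest, tapasin followed, the heavy chains lay close together near 0.20, and the light chain B2M hardly differed. In limma, 0 of 19775 genes had an adjusted p under 0.05 (percent called 0), and 509 (2.57%) had an unadjusted p under 0.05, TAP1 and TAP2 among them (over probe sets 0 passed and 2.5% had such an unadjusted p). Adjusted p was 1 for each of the 9 genes, whose SEs of 0.12 to 0.20 are close to the differences of the heavy chains.

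Both knockdown arrays lay above both non-silencing arrays for 8 of the 9 genes, against 12.4% of all genes (15% lay apart in the other direction). One of the 8, B2M, is apart by less than the second decimal. Over all 25 probe sets 25 differences were above 0, of which 22 were above 0 within both array numbers, and 18 had both knockdown arrays higher, against 13.4% of all 54675 probe sets. Probe sets of a gene share its RNA, and HLA probe sets may share targets, so these are not 25 separate observations. Between the arrays numbered 1 the median over the 9 genes was 0.23, and between the arrays numbered 2 it was 0.22, with all 9 above 0 in both, against 27.8% of all genes. Being above 0 in both follows for the 8 genes whose groups lie apart. An exact permutation of 2 against 2 arrays cannot give a p below 0.333.

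**Figure D2:**
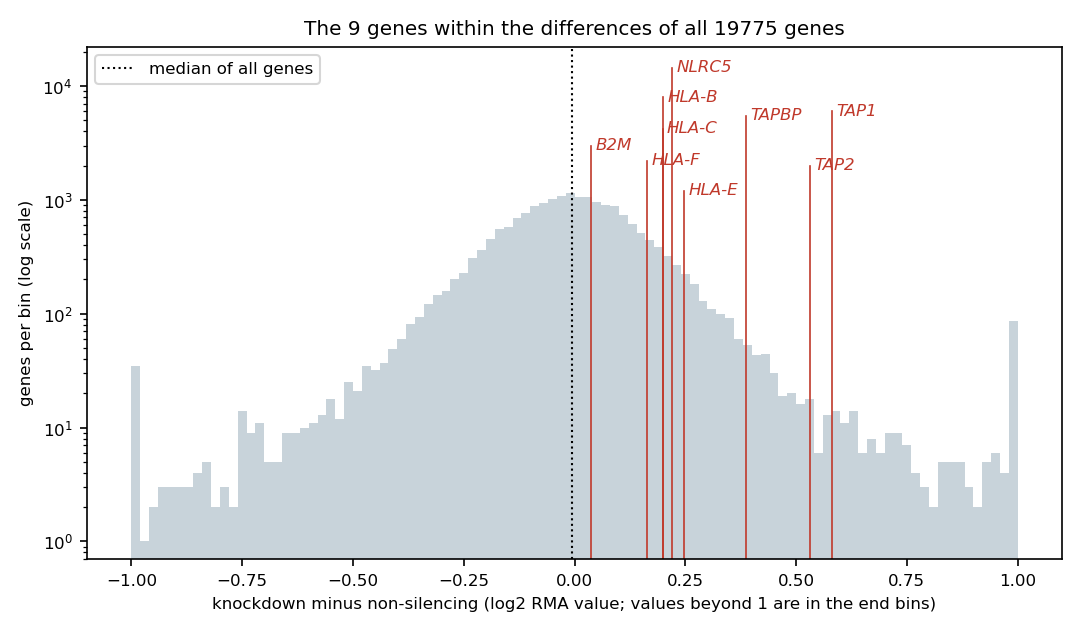
Distribution of log2 differences (knockdown minus non-silencing) over all 19775 genes, on a log count axis, with the 9 genes marked by red lines whose height carries no value. TAP1, TAP2 and TAPBP lie in the upper tail, the heavy chain genes between 0.16 and 0.25, and B2M near the median of all genes.

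TAP1 and TAP2, the subunits of the peptide transporter, had the largest differences of the 9. TAP1, at its only probe set, read 11.16 and 10.87 in the knockdown arrays, against 10.42 and 10.45 in the non-silencing arrays. The non-silencing arrays nearly coincide, and knockdown array 1 is the higher of its pair. The difference was 0.58 (SE 0.15, 95% interval 0.20 to 0.97, limma unadjusted p = 0.0117 and adjusted p = 1), or 1.5-fold, with 0.74 for the arrays numbered 1 and 0.42 for number 2. TAP1 ranked above 98.9% of all genes by its difference.

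TAP2 at its brightest probe set, 225973_at, read 9.34 and 9.04 in the knockdown arrays, against 8.64 and 8.68 in the non-silencing arrays. As for TAP1, the groups were apart and knockdown array 1 was the highest. Its difference was 0.53 (SE 0.15, 95% interval 0.14 to 0.92, limma unadjusted p = 0.0174 and adjusted p = 1), with 0.70 and 0.37 within the numbers. The other well-lit TAP2 probe set, 204769_s_at, read 9.31 and 8.66 in knockdown, against 8.64 and 7.92 in non-silencing arrays. Here both arrays numbered 2 were lower than their partners, so knockdown array 2 exceeded non-silencing array 1 only narrowly, while the difference was 0.67 and 0.75 within the numbers. Probe sets 204770_at and 208428_at were dimmer than the median of all values in either group, and their differences of 0.11 and 0.27 came with overlapping groups, the first with opposite signs within the numbers. TAP2 with the mean of its 4 probe sets differed by 0.40.

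TAPBP, which encodes tapasin, read 9.96 and 9.87 in the knockdown arrays, against 9.78 and 9.27 in the non-silencing arrays, at probe set 208829_at. Its spread lay in the non-silencing pair (SD 0.36, against 0.06 in the knockdown pair), since non-silencing array 2 was low. The difference of 0.39 (SE 0.20, limma adjusted p = 1) was 0.18 for the arrays numbered 1 and 0.60 for number 2, and 0.13 without non-silencing array 2, against 0.64 without non-silencing array 1. The dimmer TAPBP probe sets 210294_at and 1555565_s_at differed by 0.27 and 0.18, the first with groups apart and the second with overlap. With the mean of all 3, TAPBP differed by 0.28.

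**Figure D3:**
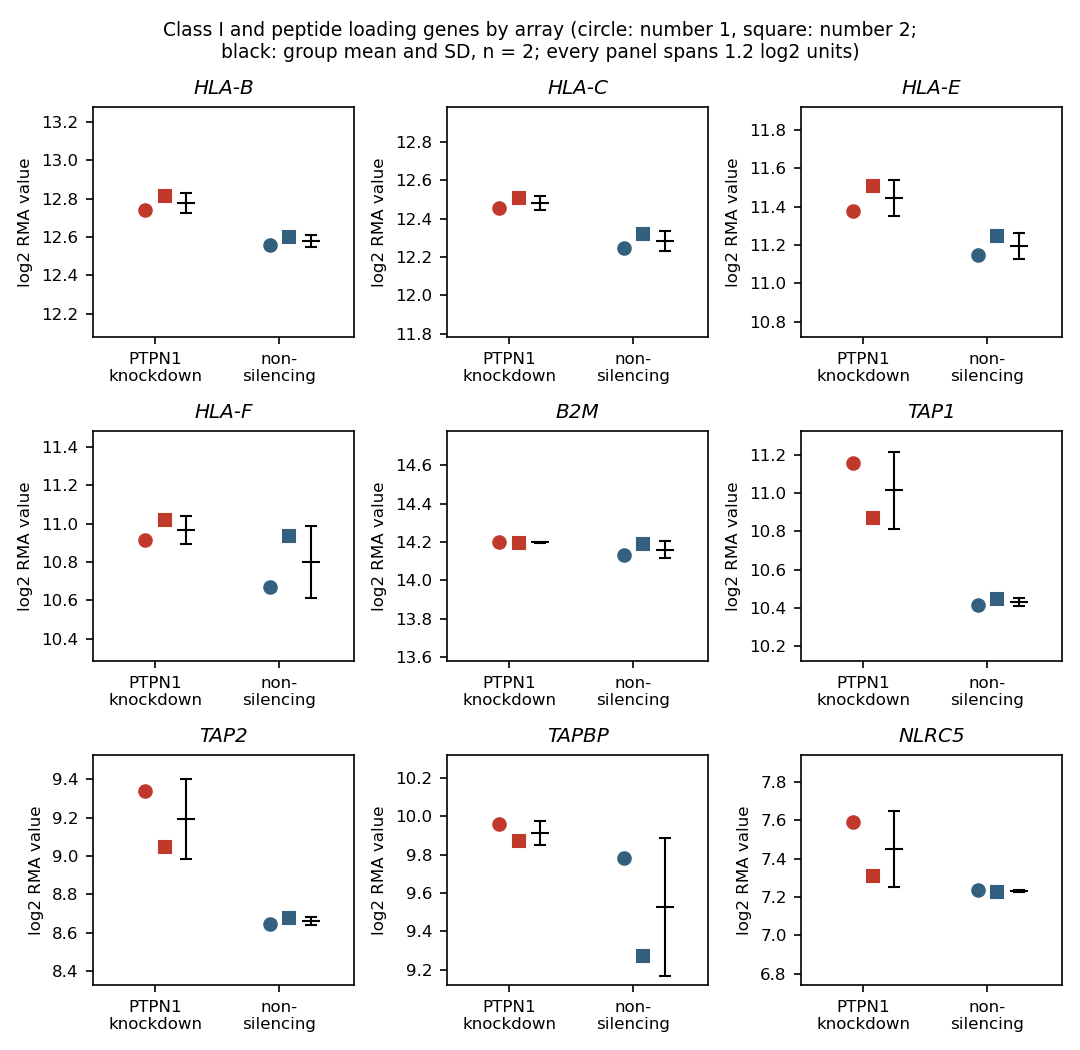
Log2 RMA value of each gene's brightest probe set in every array (red: PTPN1 knockdown, blue: non-silencing; circles: arrays numbered 1, squares: arrays numbered 2), with the group mean and SD (n = 2) in black. Knockdown arrays lie above non-silencing arrays except in HLA-F, where the non-silencing array numbered 2 (10.94) exceeds the knockdown array numbered 1 (10.91).

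The heavy chain genes gave small differences that were alike across 13 probe sets, from 0.16 to 0.34 with a median of 0.20. All 13 were above 0 within both array numbers, and 11 had both knockdown arrays higher, against 13.4% of all probe sets. HLA-B, a classical heavy chain that presents peptides to cytotoxic T cells, read 12.74 and 12.82 in knockdown, against 12.56 and 12.60 in non-silencing arrays. The groups did not overlap, and the gap between them (0.20, SE 0.12, limma adjusted p = 1) exceeded the spread within each pair. Its 2 other probe sets differed by 0.22 and 0.21.

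HLA-C, the classical heavy chain that is also a main ligand of killer-cell receptors, read 12.46 and 12.51 in knockdown, against 12.25 and 12.32 in non-silencing arrays, again without overlap. That difference was 0.20 (SE 0.12, limma adjusted p = 1), and the other HLA-C probe sets gave 0.17, 0.17 and 0.22. All 7 probe sets of HLA-B and HLA-C carry the suffix _x_at, which Affymetrix gives where probes can also match other transcripts. How much of each signal comes from other heavy chain genes was not tested. The alleles of KM-H2 can also differ from the sequences the probes were made for.

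HLA-E, a non-classical heavy chain that shows leader peptides of other class I chains to natural killer cells, read 11.38 and 11.51 in knockdown, against 11.15 and 11.24 in non-silencing arrays. The difference was 0.25 (SE 0.13, limma adjusted p = 1), with 0.23 and 0.27 within the numbers. Probe set 200904_at, the HLA-E probe set without the _x_at suffix, had the largest difference of any heavy chain probe set. It read 9.37 and 9.58 in knockdown, against 9.08 and 9.20 in non-silencing arrays, a difference of 0.34 with groups apart (SE 0.14, limma unadjusted p = 0.0628). HLA-F, a non-classical chain known for binding killer-cell receptors without peptide, read 10.91 and 11.02 in knockdown, against 10.67 and 10.94 in non-silencing arrays. These values, of 221875_x_at, overlap, and the difference of 0.16 (SE 0.15, limma adjusted p = 1) was 0.24 and 0.08 within the numbers, or 0.03 without non-silencing array 1. The HLA-F probe set without the _x_at suffix, 221978_at, read lower, with 6.19 and 6.50 in knockdown against 5.92 and 6.36 in non-silencing arrays. Its groups overlapped, with a difference of 0.20, while those of 204806_x_at lay apart, with 0.18. How much of the HLA-F signal at _x_at probe sets comes from other genes was not tested.

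**Figure D4:**
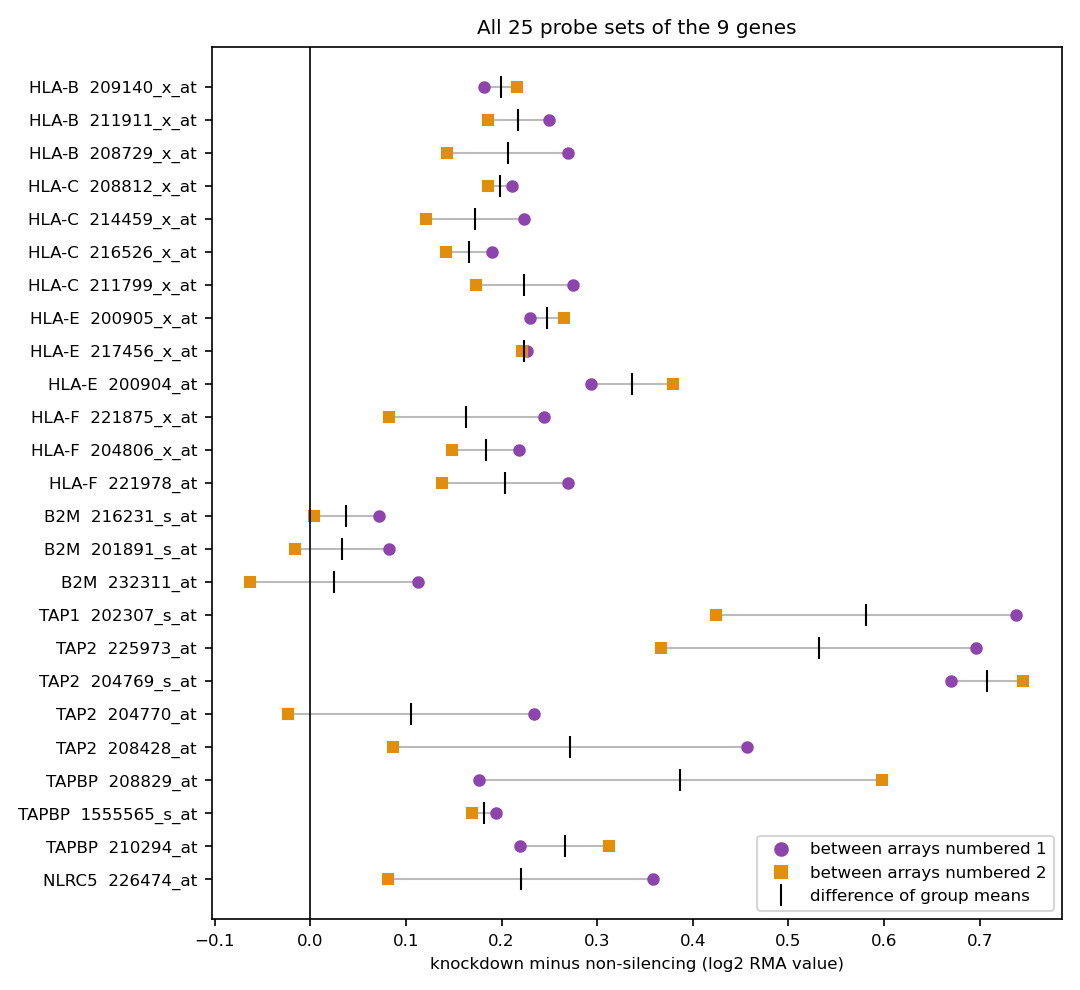
Knockdown minus non-silencing difference in log2 RMA value of all 25 probe sets, between the arrays numbered 1 (circles), between the arrays numbered 2 (squares) and between group means (bars). The heavy chain probe sets cluster between 0.16 and 0.34, the brighter TAP1 and TAP2 probe sets lie beyond 0.5, and 2 of the B2M probe sets and 204770_at of TAP2 have opposite signs within the numbers.

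B2M, the invariant light chain without which heavy chains do not reach the surface stably, read 14.20 and 14.20 in knockdown, against 14.13 and 14.19 in non-silencing arrays. The difference was 0.04 (SE 0.12, 95% interval -0.28 to 0.35, limma adjusted p = 1), with an interval that also holds the 0.20 of the heavy chains. Its other probe sets, 201891_s_at and 232311_at, differed by 0.03 and 0.03, each with opposite signs within the 2 numbers. B2M lay close to 14.8, the highest value of any probe set on these arrays, where brightness can stop following the amount of RNA. The dimmer 232311_at read 7.60 and 7.92 in knockdown and 7.48 and 7.98 in non-silencing arrays. Its groups overlapped, with a 95% interval of -0.53 to 0.58. Whether brightness limited the B2M differences was not tested.

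NLRC5, the activator of class I transcription, read 7.59 and 7.31 in knockdown, against 7.23 and 7.23 in non-silencing arrays. Knockdown array 1 gave most of that difference of 0.22 (SE 0.15, limma adjusted p = 1), which was 0.36 and 0.08 within the numbers and 0.08 without knockdown array 1. The gap of knockdown array 2 over the non-silencing arrays was smaller than the spread within the knockdown pair.

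The array number went with differences of both signs in these genes. In 12 of the 13 heavy chain probe sets and all 3 of B2M the arrays numbered 2 averaged higher than those numbered 1, whereas all 5 TAP1 and TAP2 probe sets and NLRC5 averaged lower. TAP1 differed by -0.13 for number 2 minus number 1, and TAP2 by -0.13. At the brightest probe set the knockdown difference was larger in size than the number difference for 8 of the 9 genes, against 37.2% of all genes, the exception being HLA-F with 0.16 against 0.19. These are the 8 genes with groups apart, for which this must hold, so the count restates that result. Leaving out any 1 array kept all 9 differences above 0, an outcome fixed in advance for the 8 genes with groups apart. Only HLA-F could have changed sign, and it ranged from 0.03 to 0.30.

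**Figure D5:**
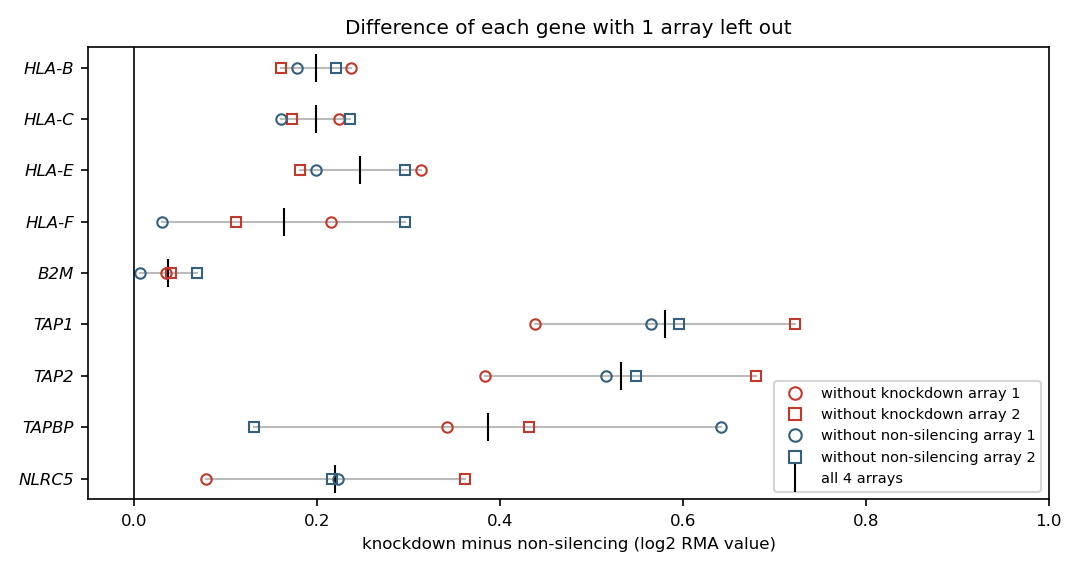
Knockdown minus non-silencing difference in log2 RMA value of each gene with all 4 arrays (bar) and with 1 array left out (red: a knockdown array, blue: a non-silencing array; circles: number 1, squares: number 2). TAP1 ranges from 0.44 to 0.72 and TAP2 from 0.38 to 0.68, while TAPBP ranges from 0.13 to 0.64, HLA-F from 0.03 to 0.30 and B2M from 0.01 to 0.07.

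Other genes of the class I pathway were mostly above 0. Of 14 listed, 13 were measured and 11 lay above 0, against 48.2% of all genes. Both knockdown arrays were higher for 3, against 12.4% of all genes, and lower for 0, against 15%, and 0 passed the test, with a median difference of 0.13. PSMB9, an immunoproteasome subunit encoded next to TAP1, read 11.02 and 10.88 in knockdown, against 10.59 and 10.60 in non-silencing arrays, a difference of 0.35 (SE 0.13, limma unadjusted p = 0.041). HLA-G, a further non-classical heavy chain, differed by 0.13, and CANX, the chaperone calnexin that receives new heavy chains, by 0.11. The pathway's median was 0.29 without knockdown array 2 and 0.33 without non-silencing array 1. It was 0.13 without knockdown array 1 and 0.11 without non-silencing array 2.

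Regulators of class I transcription lay above 0 for 9 of the 12 measured of 14 listed, against 48.2% of all genes, while 4 were above 0 within both array numbers, against 27.8% of all genes. Both knockdown arrays were higher for 4, against 12.4% of all genes, and lower for 2, against 15%, and 0 passed. The median difference was 0.05, with 0.02 after quantile normalization and 0.11 without non-silencing array 1. IRF1, an interferon-induced activator that binds the interferon-response element of class I genes, read 8.78 and 8.05 in knockdown, against 7.89 and 7.86 in non-silencing arrays. Its difference of 0.55 (SE 0.26, limma adjusted p = 1) was 0.90 for the arrays numbered 1 and 0.19 for number 2. NFYB, a subunit of the NF-Y factor, differed by 0.28, NFKB1 by 0.22 and RFXAP, a subunit of the RFX complex that binds the class I module, by 0.16. RFX5, the DNA-binding subunit of that complex, read 10.34 and 10.33 in knockdown, against 10.50 and 10.37 in non-silencing arrays, a difference of -0.10.

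General interferon-stimulated genes gave differences of both signs. Of 20 measured, 14 lay above 0, against 48.2% of all genes, with a median of 0.06 and 0 past the test. Both knockdown arrays were higher for 3 and lower for 3, close to the shares of 12.4% and 15% over all genes. IFI44 differed by 0.66, IRF7 by 0.34 and IFI6 by 0.24, whereas the antiviral GTPase genes MX1 and MX2 differed by -0.21 and -0.22. IFI44 and MX1 were dimmer than the median of all values. Among 9 measured ligands of natural killer cell receptors 4 had both knockdown arrays higher and 1 both lower, against 12.4% and 15% of all genes. MICB, a stress-induced relative of the class I heavy chains, read 9.33 and 8.86 in knockdown, against 8.72 and 8.53 in non-silencing arrays, a difference of 0.47 (SE 0.20, limma adjusted p = 1). Smaller values were 0.29 for NCR3LG1, 0.21 for MICA, 0.18 for RAET1E and -0.17 for PVR, with NCR3LG1 and RAET1E dimmer than the median of all values.

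Of the 9 genes 7 lie on chromosome 6 in the MHC region, from HLA-F to TAPBP, with B2M on chromosome 15 and NLRC5 on chromosome 16. The 126 other measured genes between HLA-F and TAPBP had a median difference of 0.13, knockdown minus non-silencing. Of these 94 (74.6%) lay above 0, against 48.2% of all genes. Both knockdown arrays were higher for 37 (29.4%), against 12.4% of all genes, and lower for 13 of the 126, against 15% of all genes. Without HLA genes and genes of the lists above, 105 remained, with a median of 0.14, of which 78 lay above 0. The 126 had medians of 0.11 and 0.14 within the array numbers and from 0.07 to 0.15 with 1 array left out. Neighbours share chromatin and some share sequence, and whether the 7 MHC genes differ from their neighbours was not tested.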

How the data were processed

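Total RNA from KM-H2 cells was labelled after 2 cycles of amplification, per the labels' protocols, and hybridised to 4 Affymetrix arrays. The deposited values are log2 values, the RMA output of the authors, as the submitters' processing notes have it; the software behind them is not given in the sources used here. Because RMA equalises array distributions, a change in total RNA cannot be seen. Of 54675 probe sets 41097 named 1 gene in the platform annotation, 1801 several and 11777 none; symbols were looked up in RefSeq (GRCh38.p14). The probe set of highest mean stood for each gene, leaving 19775 genes. The comparison of knockdown with non-silencing used limma 3.58.1 in R 4.3.3 (lmFit, eBayes, no covariate, two-sided), over all genes and separately over all probe sets, with Benjamini-Hochberg adjustment and a threshold of 0.05. Statistics at a gene's brightest probe set come from the first fit and those of further probe sets from the second. The fit was tested on simulated data. Lists are described by counts and medians without a test. From the lists of pathway genes, regulators, natural killer ligands and interferon-stimulated genes up to 5 genes each, with groups apart and the largest differences, were named, with RFX5 and IRF1 in any case; TNFRSF8 and MS4A1 were named outside this rule, after their values were seen. Members, lists and motifs were chosen with earlier results of these data known. Alternatives were 2 normalizations, other probe sets, a filter on dim values, other variance models, a replicate block and leaving out each array.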

Additional observations from a re-analysis of the deposited data

How the results depend on the processing

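The differences of the 9 genes kept their sign and stayed short of the threshold in all 99 values from the alternatives tried. Many of these values could not change sign. The other variance model, the block and the filter on dim values leave each difference as it was. Leaving out 1 array cannot turn the sign of a gene whose groups lie apart. The median of the 9 differences ranged from 0.18 to 0.24 with 1 array left out and was 0.24 with arrays centred on their medians. The number of the 9 genes with groups apart was 7 with the mean of all probe sets. It was also 7 without _x_at and _s_at probe sets where a gene had another kind. HLA-B, HLA-C and TAP1 have no other kind and kept theirs, so they were not checked by that setting. The count of genes called, 0 in the report, was 3 with a trended, robust variance and from 0 to 1 with 1 array left out; that of probe sets was also from 0 to 1. With the replicate number as a block 72 genes and 164 probe sets were called, none of them of the 9 genes, whose limma adjusted p was lowest for TAP1 (0.204) and TAP2 (0.252), and 0.0833 for TAP2 at probe set 204769_s_at; PTPN1 passed (adjusted p = 0.0251). Same-numbered arrays deviated together (correlation 0.648 across genes, the same for both numbers because each group has 2 arrays), but no label says what a number stands for. Single probe sets changed sign: 232311_at of B2M was -9e-04 after quantile normalization and ranged from -0.23 to 0.28 with 1 array left out, 201891_s_at of B2M from -0.0149 to 0.0814, 221978_at of HLA-F from -0.015 to 0.42, and 204770_at and 208428_at of TAP2 from -0.034 to 0.24 and from -0.0417 to 0.58. The first is a difference near 0, and the cause of the others was not tested. Settings for the genes around the 9 on chromosome 6 were chosen after seeing the data. Signal near the median limits the dim TAP2 probe sets and 2 arrays a group limit every difference.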
